A study of Mus musculus with 16 samples.

Results

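Single-cell RNA was examined for 7 genes of the interleukin-1 (IL-1) system, Il1b, Il1a, Il1f9, Il1rn, Il1r2, Il1rap and Nlrp3, in BM and in 2208L mammary tumors of mice. The genes were taken by symbol from the 32286 genes listed in each of 16 libraries, and all 7 were found in every library. 2208L is a transplantable Trp53-null mammary tumor line that is rich in neutrophils, and pieces of it were placed in the mammary fat pad of WT female BALB/c mice 7 to 8 weeks of age. Tumor-bearing mice received vehicle, IACS-70654 (an oral inhibitor of the bromodomain of the coactivators CBP and P300), anti-PD1 or a combination for 7 days according to the sample labels. The title of the last names only a combination, taken here as IACS-70654 with anti-PD1. The combination described in the study's text also held docetaxel. The study's text gives a shorter treatment for the BM mice. Of the 4 tumor libraries, 1 came from each condition, of all live sorted cells. BM came from untreated control mice without a tumor (ctrl) and from carriers of 2208L tumors on vehicle or on IACS-70654, so that the tumor and the vehicle dosing cannot be told apart in vehicle against ctrl. It was sorted into CD45+Ter119- cells and into lineage-negative c-Kit+CD45+ progenitors, with 2 libraries per group and sort. Cells of 3 mice were pooled in each, and the sources do not state whether the 2 libraries of a group were separate pools, so p-values measure the spread between libraries, which may be technical.

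IL-1β, encoded by Il1b, is the main IL-1 cytokine of activated myeloid cells and is made as a precursor that caspase-1 cleaves after an inflammasome has formed. NLRP3 is the sensor of the best known inflammasome. IL-1α (Il1a) and IL-1β act through a receptor that needs the accessory chain IL1RAP, which IL-36γ (Il1f9, also named Il36g) uses as well, while IL-1RN is an antagonist that occupies the receptor without signalling and IL1R2 is a decoy receptor that binds IL-1 without passing on a signal. Neutrophils mature in BM from dividing precursors through an immature stage filled with secondary granule proteins to mature cells ready to leave, and mature neutrophils and tumor myeloid cells are known sources of IL-1β.

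Il1b, Il1a, Il1f9 and Il1rn lie on mouse chromosome 2. On build GRCm38, Il1b lies at chr2:129364570-129371139 and Il1a at chr2:129299610-129309972, both on the minus strand. Il1f9 lies at chr2:24186476-24193568 and Il1rn at chr2:24336853-24351494 on the plus strand. Il1r2 is on chromosome 1, Il1rap on chromosome 16 and Nlrp3 on chromosome 11. The promoters of the 3 genes with the largest differences between groups in BM neutrophils are printed for reference, as the 250 bases before the transcription start in the RefSeq promoter table (build GRCm38.p6), 5′ to 3′ on the strand of the gene. Capitals mark matches to any of 5 motifs searched on both strands. The C/EBP motif was searched as TTNNGNAA and the AP-1 motif as TGANTCA. PU.1, a factor of myeloid genes, the TATA box and NF-κB were also searched, the last by its consensus. No matches overlapped in these windows. The Il1b window is chr2:129371140-129371389 (minus strand), the Il1f9 window chr2:24186226-24186475 (plus strand), and the Il1rn window chr2:24336610-24336859 (plus strand) belongs to the first of 3 starts in the table.
Il1b: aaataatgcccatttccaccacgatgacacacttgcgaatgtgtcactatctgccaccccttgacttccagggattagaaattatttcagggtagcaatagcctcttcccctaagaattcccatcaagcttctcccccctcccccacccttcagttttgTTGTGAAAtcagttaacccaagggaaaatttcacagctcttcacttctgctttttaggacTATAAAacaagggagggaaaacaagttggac
Il1f9: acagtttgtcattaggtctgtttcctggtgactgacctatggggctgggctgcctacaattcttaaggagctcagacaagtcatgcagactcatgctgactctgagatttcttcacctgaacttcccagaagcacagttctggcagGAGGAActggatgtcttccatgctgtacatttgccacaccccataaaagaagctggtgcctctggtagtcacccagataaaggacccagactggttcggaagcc
Il1rn: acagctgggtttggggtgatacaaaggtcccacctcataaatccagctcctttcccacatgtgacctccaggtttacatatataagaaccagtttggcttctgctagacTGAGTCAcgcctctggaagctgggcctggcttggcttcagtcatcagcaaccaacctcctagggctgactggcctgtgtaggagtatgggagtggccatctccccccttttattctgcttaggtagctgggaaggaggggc
The Il1b window held a C/EBP match starting 91 bases and a TATA match starting 31 bases before the start. The Il1f9 window held a PU.1 match (letters GAGGAA) at 104 bases and the Il1rn window an AP-1 match at 141 bases. Among all 32851 promoters of the table, cut to the same length, 36.9% held the C/EBP letters, 23.3% the PU.1 letters, 12.4% the TATA letters, 7.25% the NF-κB motif and 6.75% the AP-1 letters. The TATA box was searched by the letters TATAAA alone. The matches describe the letters of these windows only.

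The libraries held 15590289 to 68415534 unique molecular identifiers (UMIs, each counting 1 captured RNA molecule). After filtering on genes and mitochondrial UMIs per cell, CD45+ BM libraries kept 4394 to 6154 cells with a median of 4113 to 6597 UMIs per cell, and the tumor libraries kept 1974 to 5064 cells. Cell classes were named from marker genes after clustering. Depth per cell differed between the groups. Mature neutrophils numbered 1575 to 3057 per library. Their median was 2767 and 2778 UMIs in the ctrl libraries, 3290 and 3335 in the vehicle libraries, and 4211 and 4132 after IACS-70654. No barcode was shared between libraries of 1 sort. Levels are given as CPM, the UMIs of a gene relative to all UMIs of the class summed over its cells, with replicate 1 before replicate 2. A lower level in each cell and fewer expressing cells cannot be told apart in such a sum.

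The 7 genes differed in where along the neutrophil lineage they were read. Il1b was low in proliferating precursors (6.84 to 14.3 CPM over the 6 libraries) and immature neutrophils (15.4 to 25.4 CPM), and stood at 344 to 686 CPM in mature neutrophils. B cells, which should lack it, read 11.9 to 58.9 CPM, so the levels in the 2 younger stages lay within or below the range of B cells. B cells carried 59.3 to 129 S100a9 UMIs each in the ctrl and vehicle libraries and 509.6 and 207 in the IACS-70654 libraries, where they numbered 16 and 27, and the parts of free RNA and of doublets in their Il1b were not tested. In ctrl, immature neutrophils (15.4 and 22.5 CPM) were above B cells (11.9 and 14.6 CPM) of the same library. Per cell, B cells carried 0.0532 and 0.0671 Il1b UMIs in ctrl and up to 0.444 in the other groups. Proliferating precursors carried 0.101 to 0.229 and immature neutrophils 0.0850 to 0.218. Mature neutrophils made up 37.4% to 50.5% of the named cells and held 85.4% to 93.1% of all Il1b UMIs. Il1f9 was higher in later stages as well, from 12.5 to 32.2 CPM in proliferating precursors through 62.8 to 148 CPM in immature to 304 to 505 CPM in mature neutrophils. Nlrp3 was read in mature neutrophils (83.4 to 146 CPM), monocytes (63.3 to 80.5 CPM), basophils or mast cells (17.1 to 80.6 CPM) and monocyte progenitors (30.6 to 45.8 CPM). Counted per cell, mature neutrophils (0.347 to 0.44 Nlrp3 UMIs) lay below monocytes (0.550 to 0.677) and monocyte progenitors (0.552 to 0.799). Basophils or mast cells carried 0.15 to 0.8. In immature neutrophils Nlrp3 stood at 4.83 to 11.1 CPM, near the 5.57 to 14.7 CPM of B cells, and the part of background there was not tested. Il1rap was the least stage-bound, at 22.9 to 36.5 CPM in proliferating precursors, 26.8 to 52.1 CPM in immature and 74.7 to 136 CPM in mature neutrophils. Counted per cell it did not rise with stage. Precursors carried 0.304 to 0.587 Il1rap UMIs, immature neutrophils 0.203 to 0.361 and mature neutrophils 0.221 to 0.605. Mature neutrophils held 33.3% and 37.5% of its UMIs in the ctrl libraries and 55.4% to 61.2% in the others. Il1a was close to absent: the 6 CD45+ libraries together held 11 Il1a UMIs in named classes, beside 30399 Il1b UMIs in mature neutrophils alone. The stages were cut from clusters of these same cells, made without the 7 genes, so the stage differences are a description.

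**Figure D1:**
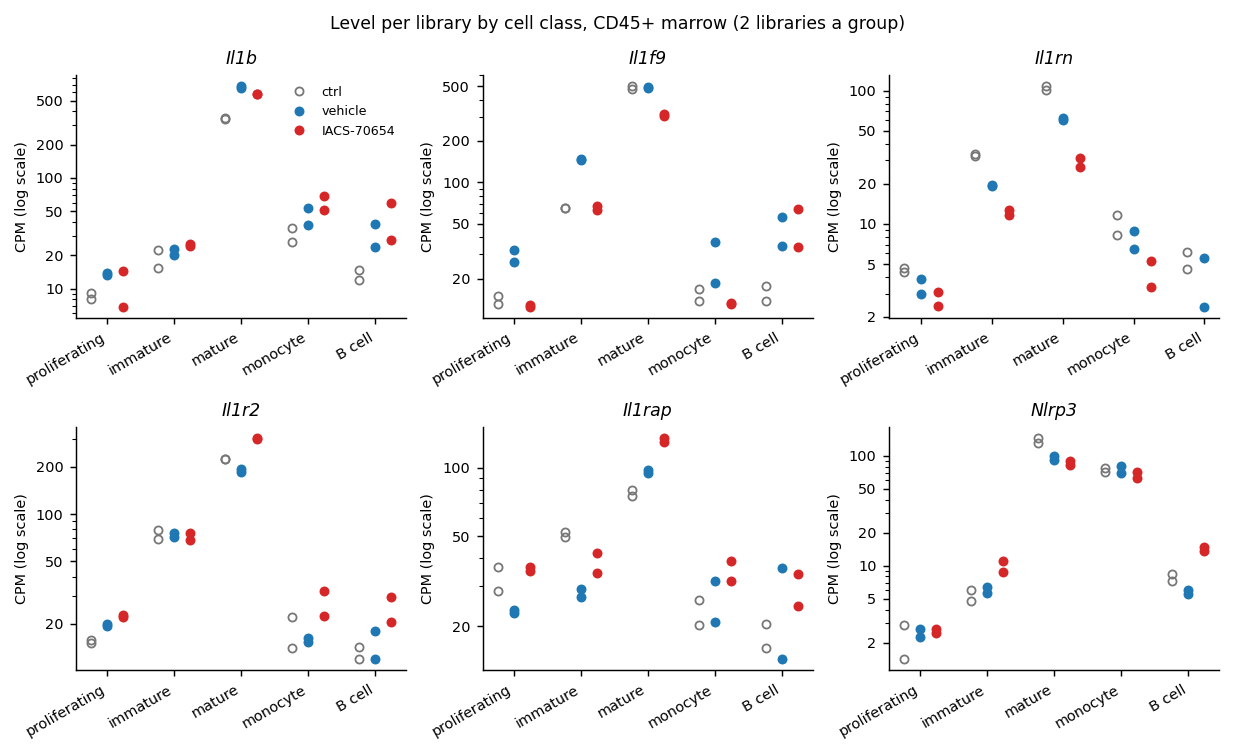
Level (CPM, log axis) of 6 IL-1 genes in 5 cell classes of CD45+ BM, with 1 point per library in ctrl, vehicle and IACS-70654 mice. Libraries at 0 are not drawn. Il1b in mature neutrophils stands at 344 to 686 CPM, while immature neutrophils lie at 15.4 to 25.4 CPM, and the IACS-70654 points of Il1f9 and Il1rn in mature neutrophils lie below all vehicle points.

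Il1b was higher in mature neutrophils of tumor-bearing mice. It stood at 351 and 344 CPM in the ctrl libraries, 686 and 651 CPM with vehicle, and 578 and 579.9 CPM with IACS-70654. Both vehicle libraries lay above both others, and both IACS-70654 libraries lay above both ctrl libraries. Vehicle exceeded ctrl by 1.03 ± 0.032 on the log2 scale (± SE, n = 2 libraries per group, edgeR quasi-likelihood test, Benjamini-Hochberg adjusted p = 8.89e-95). Calls required an adjusted p under 0.01 together with a change of more than 0.5 (log2) in either direction. IACS-70654 against vehicle gave -0.41 ± 0.026 (edgeR adjusted p = 1.91e-40), under the threshold of size. In these cells 2 of the 6 genes tested were called with vehicle (Il1b higher, Il1rn lower), where 9.78% of 11283 genes were called, and 2 of 6 with IACS-70654 (Il1f9 and Il1rn lower), where 20.9% were called. Il1a had too few UMIs to be tested in any BM class.

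The log2 changes carry trimmed-mean (TMM) scaling and the CPM values do not. Without TMM, the median of all genes moved by 0.21 (mature), 0.31 (immature) and 0.30 (proliferating) with IACS-70654 against vehicle, and by -0.08, -0.27 and -0.16 with vehicle against ctrl. In mature neutrophils the calls with IACS-70654 were split as 1314 higher and 1044 lower with TMM, and as 2359 higher and 567 lower without. Changes are given relative to TMM, and a gene whose call turned without it is named beside its value.

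From 1000 UMIs per cell upward the Il1b level fell steeply with depth, and within ranges of depth IACS-70654 overlapped or exceeded vehicle. Under 1000 UMIs, where 9 to 46 mature cells per library remained, IACS-70654 read 1105 and 1403 CPM, below both vehicle (2649 and 2756 CPM) and ctrl (1692 and 1923 CPM). Among mature neutrophils with 1000 to 2000 UMIs, Il1b stood at 1484 and 1629 CPM in ctrl, 3194 and 3343 CPM with vehicle and 3077 and 3248 CPM with IACS-70654, where the latter groups overlapped. Between 2000 and 4000 UMIs the IACS-70654 libraries (1329 and 1258 CPM) lay above the vehicle libraries (996 and 937 CPM), and ctrl at 276 and 239.8 CPM. At 4000 UMIs and above the order was the same, with 203 and 207 CPM against 130.4 and 144 CPM, and 84.9 and 88.5 CPM in ctrl. The IACS-70654 libraries held 1201 and 1458 of their mature cells in this deepest range, against 912 and 1143 with vehicle and 266 in each ctrl library. Fitted over cells with 2000 to 5000 UMIs, IACS-70654 against vehicle was 0.08 in place of -0.41. Counted per cell, vehicle mature neutrophils carried 2.52 and 2.46 Il1b UMIs, IACS-70654 cells 2.60 and 2.59, and ctrl cells 1.04 and 1.04. Macrophage markers in mature neutrophils summed to 42.1 and 47.7 CPM in the ctrl libraries, 93.6 and 93.8 CPM with vehicle and 113 and 128.9 CPM with IACS-70654, beside neutrophil markers at 272340 to 302275 CPM, and their part in the Il1b difference was not tested.

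The share of mature neutrophils that carried at least 2 Il1b UMIs was compared after thinning every cell to 1000 UMIs. It was 10.9% and 11.3% in ctrl, 24.3% and 23.6% with vehicle, and 20.8% in both IACS-70654 libraries, over 1566 to 3011 cells per library. Unthinned shares were 19.7% and 20.3%, 41.1% and 41.8%, and 42.8% and 43.8%. Thinned to 2000 UMIs, the IACS-70654 libraries again passed the vehicle libraries, with 27.3% and 27.4% against 24.5% and 25.3%. That thinning left out all cells under 2000 UMIs, so it rests on another set of cells than the thinning to 1000. B cells thinned to 1000 UMIs read 0% to 0.595% in the ctrl and vehicle libraries and 0% and 3.70% in the IACS-70654 libraries, of which 16 and 27 B cells remained (median 7004 and 6918 UMIs, and 2992 to 3143 in the other libraries). The ctrl libraries thus lay below both tumor-bearing groups in each range from 1000 UMIs upward and each thinning, whereas the direction between IACS-70654 and vehicle depended on the depth. It also turned with the clustering. In neutrophils clustered without centring and thinned to 1000 UMIs, the share was 36.9% and 33.7% with IACS-70654 against 17.7% and 17.8% with vehicle, a mean difference of 17.5 percentage points in place of -3.13, and the fitted change of Il1b was 0.77 in place of -0.41. Over libraries the mean differed by 12.8 percentage points between vehicle and ctrl and by -3.13 between IACS-70654 and vehicle, and an exact 2-sided permutation test of 2 against 2 libraries cannot go below p = 0.333, the value of both.

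**Figure D2:**
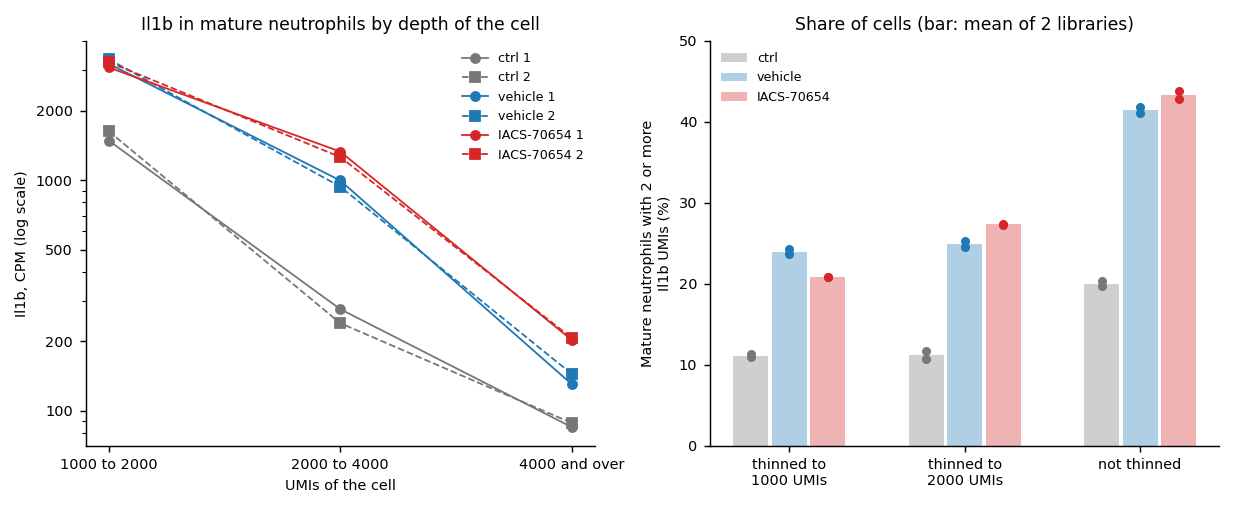
Il1b in mature neutrophils of CD45+ BM by depth. The level (CPM, log axis) is drawn by range of UMIs per cell, and the share of cells (%) with at least 2 Il1b UMIs after thinning to 1000 or 2000 UMIs or without thinning, with 1 point per library. IACS-70654 lies below vehicle at 1000 UMIs (20.8% against 24.3% and 23.6%) and above it at 2000 (27.3% and 27.4% against 24.5% and 25.3%).

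Mature neutrophils fell into 4 clusters with very different Il1b levels. A cluster led by Il1b and Ifitm1, the shallowest with a median of 1814 UMIs, read 3799 and 3922 CPM in ctrl, 3932 and 3849 CPM with vehicle and 3104 and 3101 CPM with IACS-70654, so ctrl and vehicle overlapped in it (log2 difference -0.01). A cluster led by Wfdc17 and Ccl6 read 429 and 367 CPM in ctrl, 771 and 789 CPM with vehicle, and 707 and 668 CPM with IACS-70654. A cluster led by Retnlg and Mmp8 read 45.3 and 40.3 CPM, 63.2 and 63.7 CPM, and 79.0 and 104 CPM, the only one in which both IACS-70654 libraries exceeded both vehicle libraries. In a cluster led by the interferon-induced genes Ifit1, Slfn5 and Rsad2, Il1b stood at 408 and 451 CPM in ctrl, 838 and 685 CPM with vehicle and 373 and 347 CPM with IACS-70654, a log2 difference of -1.17 against vehicle that was called. Il1b was kept out of the genes used for clustering but genes that vary with it were not, so the levels of the clusters are a description. The Il1b-led cluster held 85 of 1689 and 92 of 1575 mature cells in ctrl, 372 of 2531 and 417 of 3057 with vehicle, and 384 of 2258 and 468 of 2800 with IACS-70654. In the sum over the class, the makeup by cluster and the level within a cluster cannot be told apart. A further cluster of 180 cells in the immature class, with a median of 10680.0 UMIs and both Ltf and Il1b among its leading genes, read 319.9 CPM of Il1b, and whether it held doublets was not tested.

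Il1f9, which encodes IL-36γ, separated the stages. In immature neutrophils it stood at 64.9 and 64.9 CPM in ctrl, 148 and 146 CPM with vehicle and 62.8 and 67.3 CPM with IACS-70654. The vehicle libraries lay above all others, and the IACS-70654 libraries fell on both sides of ctrl. Vehicle exceeded ctrl by 1.44 ± 0.064 (edgeR adjusted p = 6.26e-24), and IACS-70654 differed from vehicle by -1.46 ± 0.051 (edgeR adjusted p = 3.33e-28). In neutrophils clustered without centring these values were 0.71, still called, and -0.14, which was not (0.68 and -0.84, both called, at resolution 1.5). B cells of the same libraries read 13.8 and 17.8 CPM, 34.8 and 56.1 CPM, and 34.1 and 63.8 CPM, below immature neutrophils in each library. Relative to all UMIs, proliferating precursors were at or below B cells in all 6 libraries, with 13.1 and 14.9 CPM, 26.6 and 32.2 CPM, and 12.8 and 12.5 CPM. Per cell, precursors carried 0.154 to 0.428 Il1f9 UMIs, against 0.0617 to 0.481 in B cells of 5 libraries. The part of background in the precursors was not tested. The fitted changes in precursors were called (1.23 ± 0.12 with vehicle, edgeR adjusted p = 2.8e-07, and -1.53 ± 0.11 with IACS-70654, adjusted p = 7.79e-11). In mature neutrophils ctrl (505 and 476 CPM) and vehicle (486 and 496 CPM) overlapped, and IACS-70654 was lower at 313 and 304 CPM (-0.88 ± 0.029, edgeR adjusted p = 6.25e-90). Counted per cell, mature neutrophils carried 1.36 to 1.87 Il1f9 UMIs, highest in the vehicle libraries and lowest with IACS-70654, so ctrl and vehicle did not overlap on that scale. The fall with IACS-70654 was present in each range of mature cells from 1000 UMIs upward, from 444 and 419 to 157 and 189 CPM at 1000 to 2000 UMIs and from 429 and 455 to 321 and 307 CPM at 4000 UMIs and above. The difference of the changes between mature and immature neutrophils, a test added after the data were seen, was -1.38 ± 0.069 with vehicle (edgeR adjusted p = 3.83e-35) and 0.62 ± 0.057 with IACS-70654 (adjusted p = 5.92e-17). The latter reversed to -0.98 in neutrophils clustered without centring, and was not called at 0.18 over cells with 2000 to 5000 UMIs or at 0.50 without TMM. Without centring the former was -0.71 and called. In that comparison of stages 4 of 6 genes were called with vehicle, where 3.89% of genes were called, and 3 of 6 with IACS-70654, where 6.1% were called. Immature cells held 10.0% and 10.2% of the Il1f9 UMIs of named cells in ctrl, 21.9% and 20.5% in the vehicle libraries, and 14.1% and 15.7% after IACS-70654. In immature neutrophils 2 of 6 genes were called with vehicle (Il1f9 higher, Il1rap lower), where 7.52% of genes were called, and 2 of 6 with IACS-70654 (Il1f9 and Il1rn lower), where 20.2% were called. In proliferating precursors Il1f9 was the 1 gene called in each comparison, where 3.83% and 25% of genes were called.

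Il1rn, the receptor antagonist, was lowest with IACS-70654. In mature neutrophils it stood at 109 and 102 CPM in ctrl, 63.0 and 60.8 CPM with vehicle and 26.9 and 31.4 CPM with IACS-70654, and the 3 groups did not overlap. Vehicle differed from ctrl by -0.69 ± 0.067 (edgeR adjusted p = 9.57e-20) and IACS-70654 from vehicle by -1.28 ± 0.073 (adjusted p = 5.12e-46). Immature neutrophils kept the order at lower levels, with 32.3 and 33.3 CPM, 19.4 and 19.5 CPM, and 11.6 and 12.6 CPM. There IACS-70654 was lower by -0.96 ± 0.12 (edgeR adjusted p = 1.69e-09), a call that was lost without centring (-0.39) and over cells with 2000 to 5000 UMIs (-0.89, edgeR adjusted p = 0.112), and vehicle against ctrl (-0.49 ± 0.11) missed the size threshold with TMM and passed it without (-0.75). The fall with IACS-70654 held in each range from 1000 UMIs upward, with 128 and 114 CPM against 46.8 and 59.3 CPM at 1000 to 2000 UMIs and 49.7 and 48.5 CPM against 23.0 and 26.6 CPM at 4000 UMIs and above. It was also read in each of the 4 mature clusters. In the Il1b-led cluster, however, vehicle (141 and 118 CPM) was not below ctrl (119 and 116 CPM), and the difference of 0.12 had the opposite sign to that of the class. In proliferating precursors Il1rn stood at 2.42 to 4.67 CPM, within the range of B cells (0 to 6.19 CPM).

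**Figure D3:**
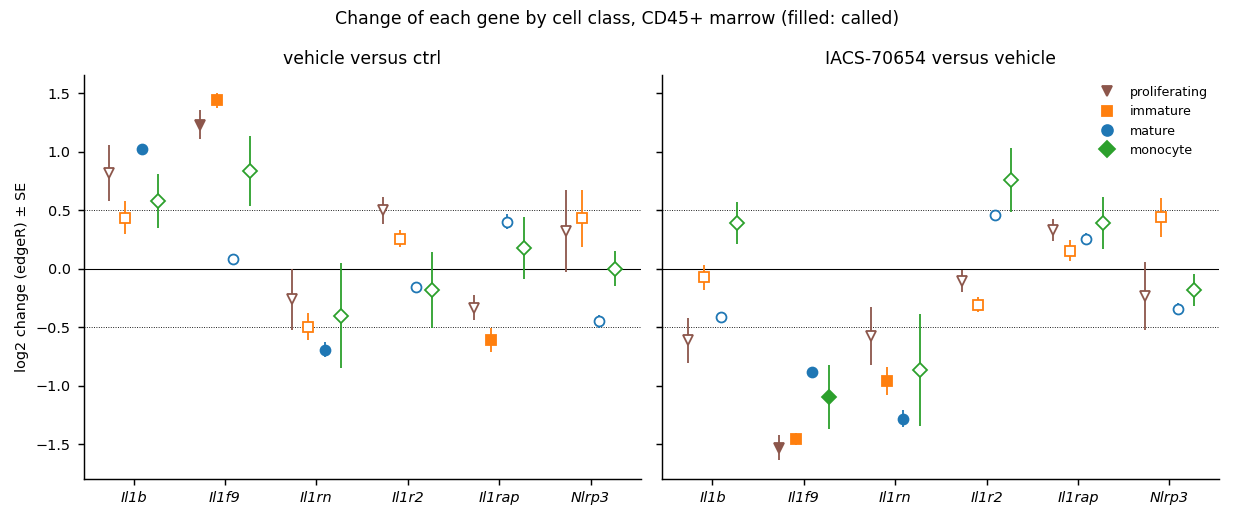
log2 change (edgeR, ± SE) of 6 IL-1 genes in 4 classes of CD45+ BM, for vehicle against ctrl and IACS-70654 against vehicle. Filled points were called (adjusted p under 0.01 and over 0.5 in size, dotted lines). Il1f9 lies at 1.44 in immature and 0.09 in mature neutrophils with vehicle, and Il1rn at -1.28 in mature neutrophils with IACS-70654.

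The decoy receptor and the accessory chain were highest in mature neutrophils with IACS-70654, by less than the size threshold when the whole class was summed. Il1r2 in mature neutrophils stood at 225 and 225 CPM in ctrl, 186 and 194 CPM with vehicle and 306 and 299.5 CPM with IACS-70654, with no overlap between the groups. Its change with IACS-70654 was 0.46 ± 0.034 (edgeR adjusted p = 3.67e-31), under the size threshold with TMM and past it without (0.67). It was also called over cells with 2000 to 5000 UMIs (0.54), without centring (0.79, and 0.61 at resolution 1.5) and in the clusters led by Wfdc17 (0.61) and Retnlg (0.63), and was 0.10 in the Il1b-led cluster. In immature neutrophils the IACS-70654 libraries (68.8 and 75.7 CPM) overlapped those of vehicle (71.6 and 75.5 CPM) and ctrl (69.0 and 78.6 CPM), and the TMM-scaled change was -0.30 ± 0.062 (edgeR adjusted p = 5.53e-05). The 2 stages differed in the change with IACS-70654 by 0.81 ± 0.067 (edgeR adjusted p = 1e-19), and by 0.20, not called, without centring. In the 2000 to 4000 UMI range of mature cells Il1r2 read 424 and 401 CPM with IACS-70654, 239 and 241 CPM with vehicle and 223 and 232 CPM in ctrl.

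Il1rap, the chain shared by the IL-1 and IL-36 receptors, stood at 74.7 and 79.6 CPM in mature neutrophils of ctrl mice, 94.5 and 97.7 CPM with vehicle and 129.8 and 136 CPM with IACS-70654. The groups did not overlap, and the steps of 0.40 ± 0.065 (edgeR adjusted p = 1.86e-08) and 0.26 ± 0.047 (adjusted p = 4.33e-07) were both under the size threshold. The first was called at 0.86 over cells with 2000 to 5000 UMIs. The second was called at 1.04 without centring (0.53 at resolution 1.5) and at 0.52 in the Il1b-led cluster, and was -0.18 in the interferon cluster. In immature neutrophils the order was different, with 52.1 and 49.4 CPM in ctrl, 29.2 and 26.8 CPM with vehicle (-0.61 ± 0.10, edgeR adjusted p = 6.78e-06) and 42.1 and 34.4 CPM with IACS-70654 (0.16 ± 0.091, adjusted p = 0.159). The difference between the stages in vehicle against ctrl was 0.99 ± 0.12 (edgeR adjusted p = 2.7e-11), and 1.90 over cells with 2000 to 5000 UMIs. The order in mature cells varied with the range of depth and the cluster: at 4000 UMIs and above, vehicle (40.4 and 47.9 CPM) lay below ctrl (59.8 and 66.8 CPM), and in the Il1b-led cluster vehicle differed from ctrl by -0.40. The parts of depth and of cell state were not tested. In proliferating precursors IACS-70654 (35.2 and 36.5 CPM) lay above vehicle (23.6 and 22.9 CPM), a change of 0.33 with TMM and of 0.63, called, without. B cells of this sort read 14.3 to 36.2 CPM, so these levels lay near the range of B cells. The immature values with vehicle, and the 34.4 CPM with IACS-70654, lay within it. In c-Kit+ BM, neutrophil progenitors read 27.7 to 31.3 CPM and B cells 2.31 to 12.3 CPM. The part of background in the CD45+ values was not tested.

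Nlrp3 in mature neutrophils was highest in ctrl, at 131 and 146 CPM, with 99.7 and 92.1 CPM with vehicle and 83.4 and 90.3 CPM with IACS-70654. Ctrl did not overlap the others. Vehicle against ctrl was -0.45 ± 0.057 (edgeR adjusted p = 1.09e-12), called without TMM at -0.53, and IACS-70654 against vehicle was -0.34 ± 0.052 (adjusted p = 1.29e-09). Within depth ranges the groups came closer. Between 2000 and 4000 UMIs ctrl (145 and 167 CPM) overlapped vehicle (146 and 137 CPM), and at 4000 UMIs and above IACS-70654 (64.5 and 73.1 CPM) lay above vehicle (55.7 and 53.3 CPM). In immature neutrophils Nlrp3 rested on 21 to 128 UMIs per library, and its change with IACS-70654 (0.44 ± 0.17, edgeR adjusted p = 0.0292) was not called with TMM and was called without (0.72). The changes of the 2 stages differed by -0.90 ± 0.25 with vehicle (edgeR adjusted p = 0.00466) and by -0.74 ± 0.17 with IACS-70654 (adjusted p = 0.000601), where the immature side was near the level of B cells. The former was called in 4 of 10 alternatives, and it was lost without centring (-0.07), without TMM (-0.70), over cells with 2000 to 5000 UMIs, and without vehicle replicate 2 or either ctrl library (-1.11 to -0.66 with 1 library left out). The latter was called in 7 of 10, and it was lost over 2000 to 5000 UMIs and without vehicle replicate 1 or IACS-70654 replicate 2 (-0.97 to -0.60).

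Monocytes of the CD45+ sort numbered 148 to 334 per library, at a median of 7029 to 8860 UMIs. No member was called with vehicle, where 0.934% of genes were called. In the edgeR fit the adjusted p was lowest for Il1f9 (0.134) and Il1b (0.192), both of which had an unadjusted p under 0.05, as no member had in DESeq2. Il1b read 35.2 and 26.1 CPM in ctrl, 53.9 and 37.4 CPM with vehicle and 51.7 and 68.8 CPM with IACS-70654, and vehicle and IACS-70654 overlapped (0.39 ± 0.18, edgeR adjusted p = 0.161). B cells read 11.9 and 14.6, 23.7 and 38.2, and 27.3 and 58.9 CPM, below monocytes in all libraries but vehicle replicate 2. Relative to the neutrophil gene S100a9, monocytes held 2.66 to 6.66 Il1b UMIs per 1000 S100a9 UMIs, mature neutrophils 2.34 to 5.21 and B cells 0.491 to 2.14, and the part of free or doublet neutrophil RNA in the monocyte values was not tested. The change of Il1b with IACS-70654 differed between mature neutrophils and monocytes by -0.80 ± 0.17 (edgeR adjusted p = 0.000266), 1 of 6 genes called where 8.32% were called. Leaving out vehicle replicate 2 or IACS-70654 replicate 2 ended that call, and over the 6 left-out libraries the value ranged from -1.07 to -0.56. Il1f9 was called lower with IACS-70654 (-1.10 ± 0.27, edgeR adjusted p = 0.00451, where 6.21% of genes were called). It stood at 37.0 and 18.7 CPM with vehicle and 13.2 and 13.2 CPM with IACS-70654, at or below B cells in all but 1 library (vehicle replicate 1, 37.0 against 34.8 CPM), and leaving out 1 library moved it between -1.51 and -0.52, with the call lost without ctrl replicate 1, vehicle replicate 1 or either IACS-70654 library and in DESeq2. Nlrp3 in monocytes stayed between 63.3 and 80.5 CPM in all 6 libraries, against 5.57 to 14.7 CPM in B cells.

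In the c-Kit+ progenitors only Il1rap and Nlrp3 had enough UMIs to be tested. With vehicle neither was called, where 1.35% of genes were called in neutrophil progenitors and 1.12% in monocyte progenitors (edgeR adjusted p from 0.0784 to 0.604). Il1rap read 27.7 to 31.3 CPM in neutrophil progenitors, where all 3 groups overlapped. In monocyte progenitors it read 20.1 and 22.7 CPM in ctrl, 17.4 and 19.8 CPM with vehicle and 25.4 and 25.6 CPM with IACS-70654, above all other libraries (0.44 ± 0.11, edgeR adjusted p = 0.002, under the size threshold, where 6.2% of genes were called). Nlrp3 stood at 10.4 to 15.2 CPM in monocyte progenitors and at 0.560 to 1.75 CPM in neutrophil progenitors. In the latter, 9 and 4 UMIs with vehicle stood against 30 and 14 with IACS-70654, a change of 1.42 ± 0.45 (edgeR adjusted p = 0.00939, where 8.22% of genes were called) that was not called in DESeq2 (adjusted p = 0.266) or with any 1 library left out. Il1b was at or under 0.374 CPM in both progenitor classes, and was read mostly in megakaryocyte-lineage cells of that sort (110 UMIs, 4.56 to 7.81 CPM).

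Of a wider list of 44 genes of IL-1 and IL-18 receptors, their signalling chain and inflammasomes, 38 were tested in mature neutrophils. With vehicle 5 were called higher and 1 lower, and the median log2 change was -0.02, where 9.78% of all genes were called. Mefv, which encodes the inflammasome sensor pyrin, rose by 1.57 ± 0.16 (edgeR adjusted p = 6.1e-19), the adapter Myd88 by 0.83, Casp4 by 0.79, the inflammasome adapter Pycard by 0.72 and the NF-κB subunit Relb by 0.51 (0.43, not called, without TMM), whereas Nlrp1b changed by -0.67. With IACS-70654 5 were called higher and 7 lower, with a median of -0.17, where 20.9% of all genes were called. The median of all genes was under 0.01 in size in both comparisons. Mefv fell by 1.99 on the log2 scale (± 0.13, edgeR adjusted p = 1e-38), Il18 by 0.89, Nlrp1a by 0.85, Relb by 0.84, Tollip by 0.71, Il18rap by 0.61 and Irak2 by 0.53. Without TMM, Nlrp1a (-0.65), Tollip (-0.50), Il18rap (-0.40) and Irak2 (-0.32) were not called, and 9 genes were higher and 3 lower, where 25.9% of all genes were called. P2rx7, the ATP-gated channel upstream of NLRP3, rose by 2.74 ± 0.37 (edgeR adjusted p = 1.3e-11), the IL-36 receptor Il1rl2 by 1.53, Naip5 by 1.03, Pycard by 0.83 and Traf6 by 0.54.

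In immature neutrophils 3 of 37 were called higher and none lower with vehicle (Relb 1.03, Myd88 0.81, Pycard 0.59), where 7.52% of all genes were called, and 7 were higher and 5 lower with IACS-70654, where 20.2% were. Without TMM these counts were 2 higher (Pycard, at 0.33, was not called) and 7 lower with vehicle, where 13.7% were called, and 12 higher and 2 lower with IACS-70654, where 28.8% were. Il1r1, the signalling IL-1 receptor, rose by 2.57 ± 0.39 with IACS-70654 (edgeR adjusted p = 3.4e-07) and Il1rl2 by 1.57, while Mefv fell by 1.41. In proliferating precursors no gene of 36 was called with vehicle, where 3.83% of all genes were, and 5 were higher and 7 lower with IACS-70654, where 25% were. Without TMM they were 0 higher and 2 lower, and 7 higher and 2 lower, where 6.2% and 34.2% of all genes were called. In monocytes 1 of 35 was called with vehicle (Txnip -0.54), and 2 with IACS-70654 (Il1rl2 2.53, Mefv -1.59), where 0.934% and 6.21% of all genes were called.

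A list of 26 genes known as targets of IL-1 and NF-κB was counted likewise, against the same shares of all genes called (9.78% and 20.9% in mature neutrophils, 7.52% and 20.2% in immature neutrophils, 3.83% and 25% in proliferating precursors, and 0.934% and 6.21% in monocytes, with vehicle and with IACS-70654). In mature neutrophils 3 of 20 tested were higher with vehicle and none lower: the acute phase gene Saa3 (3.22 ± 0.40, edgeR adjusted p = 2.9e-13), Csf1 (1.17) and Sod2 (0.81). With IACS-70654 2 were higher (Saa3 1.25, Ccl3 0.52) and 5 lower, of which Csf1 at -1.54 moved most. The median of the 20 was 0.03 with vehicle and -0.18 with IACS-70654. In monocytes 5 of 20 were higher with IACS-70654 and 1 lower, with Ptgs2 at 2.66, Cxcl2 at 1.66, Ccl4 at 1.49, Tnfaip3 at 1.22 and Ccl3 at 0.85. In proliferating precursors 3 of 20 were higher with vehicle, and 3 higher and 7 lower with IACS-70654. In immature neutrophils 1 of 18 was higher (Tnfaip2 0.56) and 1 lower (Zc3h12a -0.54) with vehicle, and 2 were higher and 4 lower with IACS-70654. With vehicle 1 of 20 was lower in monocytes (Nfkbia -0.71). Without TMM, 3 targets were higher and 1 lower in mature neutrophils with vehicle, and 2 higher and 3 lower with IACS-70654. In immature neutrophils none was higher (Tnfaip2 stood at 0.31) and 1 lower with vehicle, and 3 were higher and 1 lower with IACS-70654. In proliferating precursors 1 was higher with vehicle, and 6 higher and 4 lower with IACS-70654.

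In c-Kit+ progenitors 1.35% of all genes were called with vehicle and 8.22% with IACS-70654 in neutrophil progenitors, and 1.12% and 6.2% in monocyte progenitors. No pathway gene of 38 was called with vehicle in neutrophil or monocyte progenitors, and 2 were higher and 2 lower, and 4 higher and 1 lower, with IACS-70654. Of the targets tested, 1 of 17 was higher in neutrophil progenitors with vehicle (Lcn2 1.15) and 1 was lower with IACS-70654, and in monocyte progenitors 2 of 16 were higher with vehicle, and 2 higher and 3 lower with IACS-70654.

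In the tumors, with 1 library per condition, no difference could be tested. Levels carry exact Poisson 95% intervals and ratios exact binomial intervals, which cover counting error only. Neutrophils numbered 470 with vehicle, 245 with IACS-70654, 554 with anti-PD1 and 308 with the combination, at a median of 1199 to 1341 UMIs. Their neutrophil markers summed to 27764 to 54043 CPM, against 289 to 671 CPM in macrophages, and macrophage markers in them to 2770.4 to 4076 CPM, against 56939 to 93081 CPM in macrophages. Il1b stood at 23044 CPM (22664 to 23429) with vehicle, 22489 CPM with IACS-70654, 24895 CPM with anti-PD1 and 25199.6 CPM with the combination, or 29.8 to 35.9 UMIs per cell. The log2 ratios to vehicle were -0.04, 0.11 and 0.13. Over 3 alternatives they ranged from -0.19 to 0.01, 0.11 to 0.15 and -0.04 to 0.13, so the first and the last did not keep their sign. The alternatives were TMM-scaled totals, top doublet scores left out, and cells with at least 1000 UMIs. The tumors and BM came from different libraries and sorts, and mature BM neutrophils carried 1.04 to 2.60 Il1b UMIs per cell.

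The member that differed most in tumor neutrophils was Il1f9. It rested on 148 UMIs with vehicle (243 CPM), 15 with IACS-70654 (40.6 CPM), 175 with anti-PD1 (219 CPM) and 16 with the combination (40.0 CPM). Both libraries with IACS-70654 lay below both without it, at a log2 ratio to vehicle of -2.58 (-3.46 to -1.81), or 5.99-fold lower, and of -2.60 (-3.45 to -1.86), or 6.08-fold lower. It was the 1 of 7 members past 2-fold in either library with IACS-70654, where 10.8% and 10.7% of genes were past it, and no member was past it with anti-PD1, where 3.9% were. With TMM scaling the genes past 2-fold with IACS-70654 were split as 170 higher and 398 lower in place of 282 and 294.

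Il1rn was likewise lower in both libraries with IACS-70654 than in both without, by less than 2-fold, at 876, 549, 760.4 and 577 CPM with vehicle, IACS-70654, anti-PD1 and the combination, a log2 ratio of -0.67 (-0.91 to -0.44) with IACS-70654 and -0.60 (-0.83 to -0.38) with the combination. Il1a, near 0 in BM, was read in tumor neutrophils and stood higher in both libraries with IACS-70654, at 752 CPM with vehicle, 1133 CPM with IACS-70654, 921 CPM with anti-PD1 and 1447 CPM with the combination, where the ratio was 0.94 (0.76 to 1.12). Il1r2 was lowest with vehicle (2177 CPM) and read 2561, 2879 and 2904 CPM in the others. Its direction differed between tumor myeloid classes. With IACS-70654 the log2 ratio to vehicle was 0.23 in neutrophils, 0.43 in monocytes, -0.47 in macrophages and -0.51 in dendritic cells. With the combination it was 0.42, 0.53, -0.47 and -0.67. The value of 0.23 ranged from 0.08 to 0.25 over 3 alternatives. In tumor neutrophils Il1rap (434, 327, 415 and 335 CPM) and Nlrp3 (726, 606, 808 and 642 CPM) were both lower in the 2 libraries with IACS-70654 than in the 2 without.

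**Figure D4:**
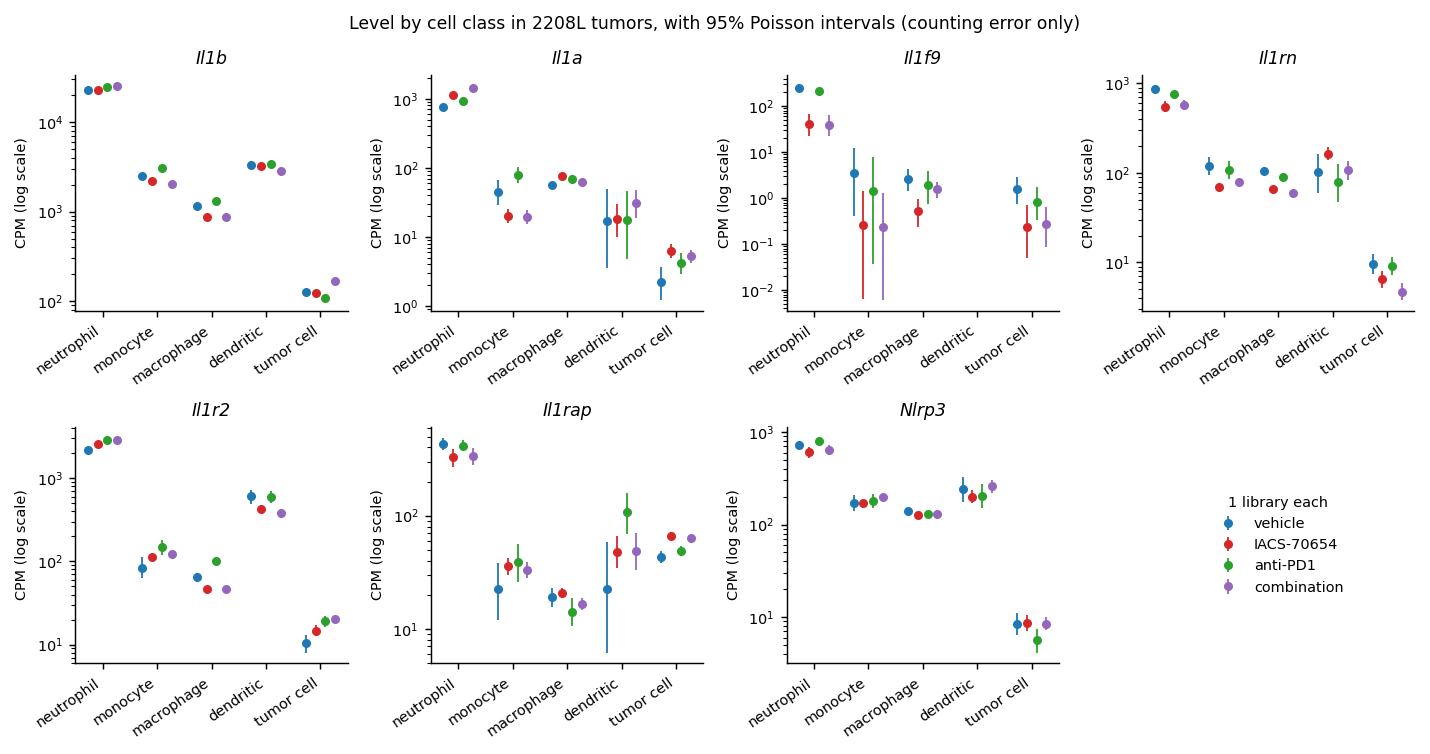
Level (CPM, log axis) of the 7 IL-1 genes in 5 cell classes of 4 2208L tumors, with 1 library per condition and exact Poisson 95% intervals for counting error. Classes at 0 are not drawn. Il1b lies at 22489 to 25199.6 CPM in neutrophils under all 4 conditions, and Il1f9 at 40.6 and 40.0 CPM with IACS-70654 and the combination, below 243 and 219 CPM.

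Dendritic cells, monocytes and macrophages of the tumors carried Il1b at lower levels than neutrophils. Dendritic cells read 2815 to 3431 CPM over the 4 libraries. Monocytes read 2479, 2203, 3069 and 2048 CPM with vehicle, IACS-70654, anti-PD1 and the combination, and macrophages 1156, 863, 1323 and 872 CPM, a log2 ratio of -0.42 (-0.46 to -0.38) with IACS-70654 and -0.41 (-0.45 to -0.36) with the combination. Of 6 macrophage clusters, 5 had less Il1b in both libraries with IACS-70654 than with vehicle. The other, led by Ccl8 and Mrc1, read 813 CPM with vehicle, 872 CPM with IACS-70654 and 1344 CPM with the combination. The cluster highest with vehicle (1525 CPM) held 147 of 720 macrophages there, 248 of 2513 with IACS-70654, 132 of 565 with anti-PD1 and 249 of 2370 with the combination, so makeup and level cannot be told apart in the class sum. Per 1000 S100a9 UMIs, macrophages held 4868 to 11122 Il1b UMIs and neutrophils 947 to 1986, and the part of free neutrophil RNA in the macrophage values was not tested. T or NK cells held 1000 to 3658 and tumor epithelial cells 977 to 2481. Thinned to 1000 UMIs, 97.7% to 99.4% of neutrophils, 63.8% to 76.6% of monocytes and 38.6% to 52.7% of macrophages carried an Il1b UMI, against 4.85% to 8.17% of tumor epithelial cells, taken here for comparison as a class outside the myeloid lineage. Whether they transcribe Il1b was not tested. Cells under 1000 UMIs were left out, so 219 to 465 neutrophils remained per tumor. Unthinned shares were 98.7% to 99.6%, 84.9% to 90.8%, 66.9% to 84.6% and 25.1% to 31.2% at median depths of 1199 to 1341, 3571 to 5211, 6066 to 6491 and 14048 to 16148 UMIs.

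Il1rn in macrophages was 106 CPM with vehicle, 65.4 CPM with IACS-70654, 89.7 CPM with anti-PD1 and 60.3 CPM with the combination, and in monocytes 121, 69.2, 108 and 79.3 CPM. In neutrophils, monocytes and macrophages alike, both libraries with IACS-70654 were below both without it. In dendritic cells both were above, with 165 and 107 CPM against 102 CPM with vehicle and 79.9 CPM with anti-PD1. The ratio of IACS-70654 to vehicle there was 0.70 (-0.02 to 1.49), on 18 UMIs with vehicle. Il1a went another way in monocytes than in neutrophils, with 44.8 and 79.3 CPM in the libraries without IACS-70654 and 20.3 and 19.5 CPM with it, log2 ratios to vehicle of -1.14 (-1.80 to -0.44) and -1.20 (-1.85 to -0.50) on 26 to 82 UMIs. It was the 1 member past 2-fold in monocytes, of 6 with enough UMIs, where 11.6% of genes were past it with IACS-70654 and as many with the combination, and with anti-PD1 no member was, where 4.07% of genes were. In macrophages Il1f9 was past 2-fold with IACS-70654 on 14 UMIs with vehicle and 9 UMIs with it, where 6.36% of genes were, and no member was with the combination or anti-PD1, where 6.22% and 2.36% were. Nlrp3 stood at 127 to 141 CPM in macrophages and at 170.2 to 199 CPM in monocytes. Counted per cell these classes overlapped with neutrophils. Macrophages carried 0.844 to 1.05 Nlrp3 UMIs, monocytes 0.678 to 1.13 and neutrophils 0.834 to 1.17. Il1rap in dendritic cells was past 2-fold in all 3 comparisons against 4 UMIs with vehicle (where 14.4%, 7.06% and 12.6% of genes were), and 2 of the 3 intervals included no change. In T or NK cells Il1b read 347, 721, 1134 and 824 CPM and was past 2-fold in all 3 comparisons, as was Il1r2 on 8, 32, 82 and 35 UMIs (where 12.1%, 8.43% and 13.1% of genes were), and the part of free myeloid RNA in these values was not tested. Tumor epithelial cells held 14, 79, 35 and 96 Il1a UMIs, past 2-fold with IACS-70654 (1.52, 0.69 to 2.45) and the combination (1.24, 0.43 to 2.17), where 9.18% and 9.92% of genes were. Il1rn was past it with the combination (-1.02, -1.51 to -0.53), and no member was with anti-PD1, where 2.9% of genes were.

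The cell class that supplied the Il1b UMIs differed between the tumors. Neutrophils were 24.0% of named cells with vehicle and 27.1% with anti-PD1, and held 59.5% and 68.5% of Il1b UMIs. With IACS-70654 and the combination they were 5.23% and 6.14% of cells, and held 22.7% and 26.8%. There macrophages held 41.0% and 36.0% and monocytes 23.4% and 22.8%, against 26.4% and 16.7%, and 6.10% and 7.32%, in the libraries without IACS-70654. Of the Il1rn UMIs, macrophages held 45.0% and 29.6% without IACS-70654 and 61.6% and 56.2% with it. Neutrophils held 30.9% and 47.8% of Nlrp3 UMIs without IACS-70654 and 6.57% and 7.47% with it. For Il1rap the largest share was in tumor epithelial cells in all 4 tumors (40.6%, 54.7%, 47.2% and 66.0%). Shares rest on the cells that survived dissociation and sorting.

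**Figure D5:**
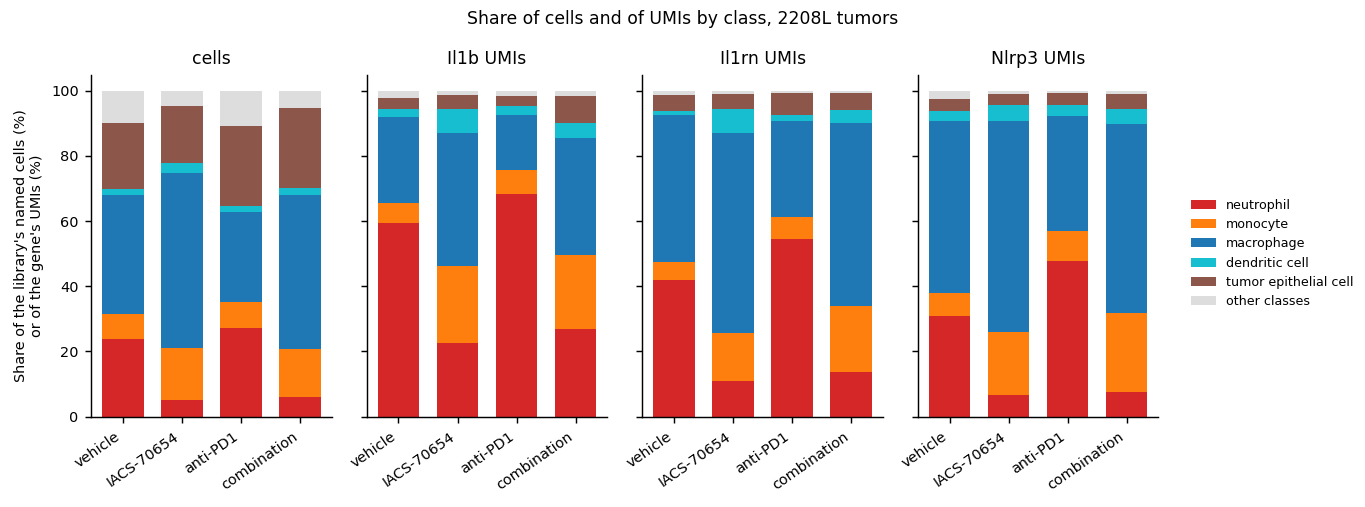
Share (%) of named cells, and of the Il1b, Il1rn and Nlrp3 UMIs, by cell class in the 4 tumor libraries, as stacked bars to 100%. Neutrophils hold 59.5% and 68.5% of Il1b UMIs with vehicle and anti-PD1, and 22.7% and 26.8% with IACS-70654 and the combination.

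The wider lists were counted in tumor neutrophils against 10.8% of all genes past 2-fold with IACS-70654, 3.9% with anti-PD1 and 10.7% with the combination. Of 25 pathway genes with enough UMIs, Traf6 was past 2-fold higher (1.03, 0.14 to 1.93) and Mefv lower (-2.41, -3.68 to -1.35) with IACS-70654. Mefv was also past 2-fold lower with the combination (-1.62) and in macrophages (-2.00 and -1.60) and monocytes (-2.01 and -2.49) of both libraries with IACS-70654, which share the vehicle library. Of 23 target genes Tnf was lower (-1.38, -1.94 to -0.86) and Cd83 higher (2.04, 0.80 to 3.43) with IACS-70654, and no gene of either list was past 2-fold with anti-PD1. With the combination, Mefv and Relb (-1.37) were the 2 of 26 pathway genes past 2-fold, both lower, and of 23 targets Cxcl1 (2.17) and Cd83 (1.31, -0.07 to 2.78) were higher and Saa3 (-1.64) lower. Mefv was 1 of 5 pathway genes of 36 past 2-fold in monocytes with IACS-70654 (1 higher, 4 lower) and of 6 of 37 with the combination (2 higher, 4 lower), where 11.6% of all genes were in each. In macrophages 4 of 38 (1 higher, 3 lower) and 1 of 37 (Mefv) were, where 6.36% and 6.22% of all genes were. Tumor epithelial cells had 6 of 34 higher and none lower in each of the 2 libraries, where 9.18% and 9.92% of all genes were past 2-fold. Of the targets, 3 of 23 and 2 of 23 were past it in monocytes, 1 of 24 and 2 of 24 in macrophages, and 6 of 24 and 6 of 25 in tumor epithelial cells. In macrophages Saa3 stood at 35.1 CPM with vehicle, 292 CPM with IACS-70654 and 278 CPM with the combination, and stood at 75.5 CPM with anti-PD1.

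Across 59 sums of class and library in CD45+ BM (10 classes), the genes whose log level followed Il1b most closely among 3388 were Clec4d (Pearson's r = 0.907), Sfxn5 (0.881), Arg2 (0.878), Map1lc3b (0.861) and Snap23 (0.858), and of the members Il1f9 ranked 25 (0.795). Across 34 sums in the tumors they were Cxcl2 (0.962), Ccrl2 (0.961), Lilr4b (0.947), Trem1 (0.936) and Nlrp3 (0.935), with Il1rn at 0.933, Il1r2 at 0.924, Il1a at 0.851 and Il1rap at 0.667. The sums of 1 library share its depth and free RNA, so these correlations describe which classes carried the genes.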

How the data were processed

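Per the labels and the study's methods, live tumor cells and sorted BM cells of pooled mice were tagged with CellPlex oligonucleotides, captured with 10x 3′ v3.1 chemistry and counted with Cell Ranger (7.1.0 for tumors and 7.2.0 for BM in the file headers, mm10 in the submitters' processing notes). The deposited matrices hold UMI counts per gene and cell, not normalized, which the authors filtered to called cells. A 3′ assay reads the end of a transcript and cannot show splice forms or protein.

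Cells with more than 200 and under 6000 genes and at most 10% mitochondrial UMIs were kept. The study's methods word the limits of 200 and 6000 as read counts, and here they were applied to genes per cell. They also pair a limit of 1000 UMIs with the mitochondrial one, which was used here as an alternative minimum only. The results text and figure legends of the study give 6 days of treatment for the BM mice, where the labels give 7. Cells were clustered by sort with leidenalg 0.10.2 in Python 3.11.15 (2000 variable genes without the 7 genes, both gene lists and genes the study names for a comparison, 30 components, 20 neighbors, resolution 1.0) and named by marker lists. Neutrophils were clustered again at resolution 0.8 after centring each library. Centring replaced the planned clustering without it after those clusters were seen to split by group, before any fit was run, and the uncentred clusters were kept as an alternative. The threshold set by Scrublet (scanpy 1.11.5) marked 0% to 1.66% of cells, so no doublets were removed, and an alternative left out the highest scores at the loading rate expected. CellPlex removes doublets between samples, not within them.

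Counts were summed per library and class and tested with edgeR 4.0.16 (TMM, quasi-likelihood F test, Benjamini-Hochberg over all genes tested) in R 4.3.3, with all 3 groups in 1 fit. Calls were made at an adjusted p under 0.01 with changes beyond 0.5 on the log2 scale in either direction, whereas the methods of the study word the lower limit differently from the upper one. Differences between classes were tested as interactions with the library as a block. Each SE was calculated as the size of the log2 change divided by the square root of its F statistic. On simulated counts edgeR recovered 89.5% of 200 genes changed by 1 on the log2 scale in mature neutrophils (11283 genes), 72% in monocytes (9313 genes) and 72% in the mature and monocyte interaction (7131 genes). The changed genes were drawn from those with a mean of at least 20 UMIs per library, as many higher as lower, with a common dispersion for all genes. Recovery at lower counts, or with changes mostly in 1 direction, was not measured. The common dispersion was 0.00022 in mature neutrophils. Between the libraries of a group the chi-square per degree of freedom was 1.21 to 1.25 there and 1.12 to 2.99 in other classes, above counting noise, so no pair was treated as 1 library deposited more than once. These values do not show whether the libraries came from separate pools. Shares were compared after thinning each cell to 1000 UMIs. Tumor ratios used summed counts, exact 95% intervals and a limit of 2-fold among genes with at least 20 UMIs in both libraries together.

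The 7 genes, the list of 44 pathway genes, the list of 26 target genes and the rule for named genes (all 7 genes, list genes only where called, and the 5 genes most like Il1b by Pearson's r of log2(CPM + 10)) were chosen with earlier results of these data known. Alternatives were other size factors, DESeq2 1.42.0, no filter, a replicate block, each library left out, depth limits, other clusterings and doublets left out. The tumor B cell class counts among the named cells in shares and among the sums behind the correlations, and its ratios are not reported.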

Additional observations from a re-analysis of the deposited data

Results flagged for a closer look

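Differences between cell classes in the same comparison drew attention, each from an edgeR interaction test with Benjamini-Hochberg adjustment. For Il1b the change with IACS-70654 against vehicle was lower in mature neutrophils than in monocytes by 0.80 on the log2 scale (-0.80, adjusted p = 0.000266), with -0.41 in mature neutrophils and 0.39 in monocytes. The call was lost without vehicle replicate 2 (-0.58) or IACS-70654 replicate 2 (-0.56), over a range of -1.07 to -0.56 with 1 library left out. The value in mature neutrophils was 0.08 over cells with 2000 to 5000 UMIs and 0.77 in neutrophils clustered without centring.

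Between mature and immature neutrophils 4 of 6 genes differed with vehicle against ctrl, where 3.89% of genes were called. The difference was -1.38 for Il1f9 (0.09 in mature and 1.44 in immature cells), 0.99 for Il1rap (0.40 and -0.61), -0.90 for Nlrp3 (-0.45 and 0.43) and 0.56 for Il1b (1.03 and 0.44). With IACS-70654 against vehicle 3 of 6 differed, where 6.1% were called, at 0.81 for Il1r2 (0.46 and -0.30), -0.74 for Nlrp3 (-0.34 and 0.44) and 0.62 for Il1f9 (-0.88 and -1.46). Without centring the difference of Il1f9 with IACS-70654 reversed to -0.98, and at 2000 to 5000 UMIs (0.18) and without TMM (0.50) it was not called. The difference of Nlrp3 with vehicle was called in 4 of 10 alternatives (range -1.11 to -0.07) and that with IACS-70654 in 7 of 10 (-2.12 to -0.60). The difference of Il1b was lost without ctrl replicate 2 (0.28, adjusted p = 0.477) and at 2000 to 5000 UMIs, with a range of 0.28 to 0.87 with 1 library left out. That of Il1r2 was 0.20, not called, without centring. The comparison of these stages was added after the data were seen. Both stages came from the same libraries, and immature cells were deeper (median 5411 to 8380 UMIs against 2767 to 4211). Immature Nlrp3 (4.83 to 11.1 CPM) and Il1b (15.4 to 25.4 CPM) lay in or below the range of B cells (5.57 to 14.7 and 11.9 to 58.9 CPM). The 58.9 CPM came from an IACS-70654 library with 27 B cells. In ctrl, immature Il1b was above that of B cells of the same library. Immature Il1rap (26.8 to 52.1 CPM) lay partly within that of B cells (14.3 to 36.2 CPM). The part of depth in these differences was not tested beyond the fit to cells of 2000 to 5000 UMIs.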

How the results depend on the processing

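Vehicle against ctrl raised Il1b in mature neutrophils in every alternative but the Il1b-led cluster (-0.01), where Il1rn was 0.12 and Il1rap -0.40 and no gene was called (2.08% of all genes), against 2 in the class and 1 in the interferon cluster (3.26%). IACS-70654 against vehicle lowered Il1rn and Il1f9 in every mature alternative. Il1b did not keep its sign there: -0.41 became 0.08 in cells of 2000 to 5000 UMIs, 0.77 in clusters without centring, 0.14 without centring at resolution 1.5 and 0.33 in the Retnlg-led cluster, where Nlrp3 was 0.06. Il1rap was -0.18 in the interferon cluster. Calls in mature cells moved from 2 of 6 (20.9% of all genes) to 5 without centring (26.7%), 4 at resolution 1.5 (22.3%) and 4 in the interferon cluster (11.8%). The share with at least 2 Il1b UMIs moved from -3.13 points to 2.47 (thinned to 2000), 1.85 (not thinned) and 17.5 (without centring). Without centring Il1r2 in immature cells was -0.05, and -0.06 at resolution 1.5, with vehicle, and 0.57 with IACS-70654, and the stage difference of Il1f9 was -0.98.

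Calls in proliferating precursors moved from 1 of 6 to 2 (other size factors, replicate block, doublets out, where 3.34% to 3.88% of all genes were called), 3 of 7 (no filter, 2.87%) and 0 (2000 to 5000 UMIs, where no member could be tested) with vehicle, and from 1 to 2 (other size factors, no TMM, no filter, replicate block, either clustering without centring, where 15.1% to 34.2% were called) and 0 (2000 to 5000 UMIs, none tested) with IACS-70654. With IACS-70654 the 1 call in monocytes became 0 in DESeq2 (3.17% of all genes) and 2 with doublets out (6.76%), the 1 in neutrophil progenitors became 0 in DESeq2, with doublets out and at 2000 to 5000 UMIs (3.72% to 8.62%), and the 0 in monocyte progenitors became 1 with doublets out (6.21%). The 4 stage differences with vehicle became 2 (3.63%), and the 3 with IACS-70654 became 1 (1.1%), at 2000 to 5000 UMIs, and 5 (11.7%) without centring. Apart from settings that follow from fewer cells or genes, the cause was not tested.

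With 1 library left out, calls ranged from 1 to 3 and 1 to 2 in proliferating precursors, 0 to 1 in monocytes, 0 to 0 in neutrophil progenitors, 0 to 1 in monocyte progenitors (1 without vehicle replicate 2) and 0 to 1 for mature neutrophils against monocytes. They ranged from 2 to 3 and 2 to 2 in mature, 2 to 3 and 2 to 2 in immature cells, and 3 to 4 and 2 to 3 for the stage differences. Replicate numbers paired no samples (correlations of deviations -0.031 to 0.023), and the replicate block moved no count of calls over 1.5 times outside proliferating precursors. The fit to 2000 to 5000 UMIs had too few cells in monocytes and monocyte progenitors. Recovery was simulated at a log2 change of 1 alone, so the detection of smaller changes, as in the 148 to 334 monocytes per library, was not measured.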
